A study of Sus scrofa with 12 samples.

Results

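The genes of heat shock proteins, J proteins and chaperonins were examined for C/EBP-β binding in the endometrium of pregnant pigs. They were the protein-coding genes of the Sscrofa11.1 annotation whose symbols begin with HSPA, HSPB, HSPD, HSPE, HSPH, HSP90, DNAJA, DNAJB or DNAJC, together with CCT2 to CCT8 and TCP1. HSPA5, HSP90B1 and DNAJB9, which encode chaperones of the endoplasmic reticulum, were left out by that rule, while other genes of that compartment stayed in by their symbols. The rule gave 78 of 20663 protein-coding genes, and 77 of them lie among the 19550 with a position on an assembled chromosome. The remaining gene, HSP90AA1, is listed on an unplaced sequence and was not analysed here. The rule takes genes by name and uses no binding value, but it was chosen with earlier results of these data known.

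Molecular chaperones hold unfolded proteins and help them reach their native state. HSP70 proteins bind and release their clients in an ATP cycle that J proteins (the DNAJ families) start and that HSP110 proteins help to complete, and the small heat shock proteins hold clients without ATP. The chaperonins are closed barrels in which a protein folds alone: TRiC, built from TCP1 and the CCT subunits, works in the cytosol on actin and tubulin, and HSP60 with its lid HSP10 works in mitochondria. C/EBP-β, a basic leucine zipper transcription factor, is required in the mouse for the uterine stroma to decidualize.

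The tissue was endometrium, the lining of the uterus, taken on day 15 and day 12 of pregnancy, with 3 C/EBP-β ChIP-seq libraries per day. The labels give no breed, age or treatment and leave it unsaid if replicates are different animals, and the 3 input libraries of each day were not analysed here. Endometrium is a mixture of epithelium, stroma, vessels and immune cells, and a list of summits does not show which of them was bound. Fewer bound cells and weaker binding per cell cannot be told apart in such tissue. Each library is a list of peak summits 1 bp wide with a score from the authors, and holds no number of reads, so the depth of sequencing is not known.

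The lists differed in length far more within a day than between days. On the assembled chromosomes the day 15 replicates held 70152, 16529 and 11960 summits, and the day 12 replicates held 6557, 33294 and 57728. The peak names also fall into 2 forms, which were treated as processing sets: set A (names with a directory path) holds day 15 replicates 2 and 3 and day 12 replicate 1, and set B holds the other 3 libraries. In the peak names of day 15, replicates 2 and 3 share a sample code, and the names of replicate 3 lack the protein. Because of the unequal lengths, counts of chaperone genes are set beside the share of all protein-coding genes that met the same rule, where that share was taken.

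Chaperone genes carried C/EBP-β summits more often than protein-coding genes as a whole in each of the 6 libraries. A summit lay within 2 kb of either end of the gene for 59, 51 and 44 of the 77 genes in the day 15 replicates and for 24, 39 and 51 in the day 12 replicates. These are 76.6%, 66.2% and 57.1% on day 15, against 55.4%, 39.4% and 32.8% of all protein-coding genes. On day 12 they are 31.2%, 50.6% and 66.2%, against 13.2%, 27.9% and 42.4%. The chaperone share stood 21.3, 26.8 and 24.4 percentage points above the share of all genes on day 15 and 17.9, 22.7 and 23.8 points above it on day 12.

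Chaperone genes also lie closer to other genes: another protein-coding gene end lay within 5 kb of an end of 47 of the 77 (61.0%), against 50.7% of all protein-coding genes. How much of the higher share comes from such neighbours was not tested. Widening the window to 5 kb raised the counts to 67, 58 and 50 on day 15 and to 27, 49 and 57 on day 12. The corresponding shares of all genes were 64.8%, 44.6% and 37.6% on day 15 and 17.2%, 38.4% and 54.1% on day 12.

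**Figure D1:**
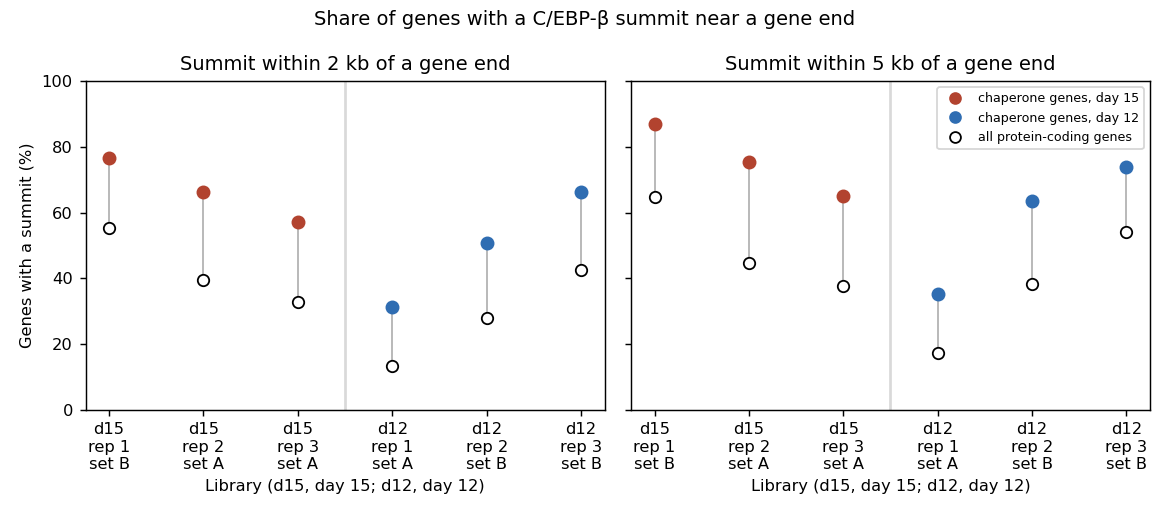
Share of genes (%, vertical axis) with a C/EBP-β summit within 2 kb (left) or 5 kb (right) of a gene end in each library, with filled points for the 77 chaperone genes and open points for all 19550 protein-coding genes. In each library the filled point lies above the open one, by 17.9 to 26.8 percentage points at 2 kb, and both shares are highest in day 15 replicate 1 and lowest in day 12 replicate 1.

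The days were not separated by the share of chaperone genes with a summit. At 2 kb the mean share was 66.7% ± 9.75 on day 15 and 49.4% ± 17.6 on day 12 (SD, n = 3 each), and the libraries of the days overlapped. The difference of 17.3 points was 30.5 points within set A and 18.2 points within set B, and fell to 8.23 points when day 12 replicate 1, the shortest list, was left out. All protein-coding genes showed a difference of 14.7 points, with 42.5% ± 11.6 on day 15 and 27.9% ± 14.6 on day 12.

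Relative to all genes, the chaperone share stood higher by 24.2 ± 2.79 points on day 15 and by 21.5 ± 3.13 points on day 12 (SD, n = 3 each). The difference between the days was 2.66 points, smaller than the spread between replicates of a day. It was 7.66 points within set A and -2.02 points within set B. At 5 kb the difference was 5.78 points, larger than the SDs, with 26.8 ± 4.28 points on day 15 and 21.0 ± 3.80 points on day 12, and the days still overlapped. It was 11.2 points within set A and -0.330 points within set B there. At 2 kb, leaving out day 12 replicate 1 gave 0.879 points, leaving out day 15 replicate 2 gave 1.32 points and leaving out day 15 replicate 1 gave 4.10 points. A minimum score of 2 left the days overlapping, with 22.2, 26.3 and 22.8 points on day 15 and 17.9, 22.4 and 23.7 points on day 12 at 2 kb. Minima of 5 and 10 separated the days. Since scores depend on depth, which is unknown, a fixed minimum is not the same cut in each list, and its part was not tested. With a score of at least 5 the chaperone share at 2 kb stood 20.4, 26.2 and 21.2 points above all genes on day 15 and 10.6, 17.3 and 15.8 points above them on day 12, a difference of 8.06 points. With a score of at least 10 the values were 16.4, 20.3 and 12.4 points on day 15 and 2.47, 9.25 and 10.4 points on day 12, a difference of 8.98 points. With lists of equal length the days overlapped, with 4.84, 23.4 and 20.9 points on day 15 and 17.9, 7.14 and 4.54 points on day 12.

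A gene was called bound on a day when at least 2 of the 3 libraries of that day had a summit within 2 kb. By that rule 49 chaperone genes (63.6%) were bound on day 15, where 40.4% of all protein-coding genes were. On day 12 the count was 38 (49.4%), against 27.7% of all genes. When a day 12 library was left out, both of the others had to hold a summit, and the day 12 count was 37 without replicate 1, 23 without replicate 2 and 22 without replicate 3. Both days were called for 35 chaperone genes (45.5%), against 23.0% of all genes. Day 15 alone was called for 14 (18.2%), close to the 17.5% of all genes, and day 12 alone for 3 (3.90%), against 4.69%. With a window of 5 kb, 58 (75.3%) were bound on day 15, against 46.3% of all genes, and 47 (61.0%) on day 12, against 38.1%. The day 12 count at 5 kb was 26 without replicate 2 and 25 without replicate 3. The share of all genes was not taken with a library left out, so these counts have no background beside them.

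All 6 libraries held a summit within 2 kb for 21 chaperone genes (27.3%), against 9.71% of all protein-coding genes. No library held one for 14 (18.2%), against 38.9%. Other groups of housekeeping genes also stood above the share of genes as a whole. The day 15 and day 12 counts were 31 (79.5%) and 17 (43.6%) of 39 proteasome subunit genes. They were 30 (83.3%) and 20 (55.6%) of 36 aminoacyl tRNA synthetase genes, and 58 (78.4%) and 31 (41.9%) of 74 mitochondrial ribosomal protein genes. The chaperone share of 63.6% on day 15 was below each of these groups, and that of 49.4% on day 12 was below the synthetases alone. No library held a summit for 10.3%, 8.33% and 2.70% of these groups in that order, lower shares than that of the chaperone genes. The share present in all 6 libraries was 15.4% for the proteasome, 27.8% for the synthetases and 17.6% for the mitochondrial ribosome. On that measure the chaperone genes, at 27.3%, stood beside the synthetases.

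Among chaperone genes with a summit within 2 kb, the nearest summit usually lay close to the gene end. Its median distance was 157, 127 and 126 bp in the day 15 replicates, against 237, 172 and 152 bp for all genes with a summit. In the day 12 replicates it was 152, 333 and 201 bp, against 205, 367 and 287 bp for all genes. The share of these chaperone genes with a summit within 500 bp was 86.4%, 90.2% and 88.6% on day 15, against 72.6%, 80.8% and 81.0% for all genes. On day 12 it was 70.8%, 64.1% and 78.4%, against 70.0%, 56.9% and 64.0%, so that day 12 replicate 1 stood near the background. The median of the chaperone genes was below that of all genes in each library, and the farthest median fell in day 12 replicate 2 for both.

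The subfamilies are given beside a background of 40.4% of all protein-coding genes bound on day 15 and 27.7% on day 12. Of the 11 HSP70 genes, 9 were bound within 2 kb on day 15 and 7 on day 12, and of the 9 chaperonin genes 8 and 5. The 27 DNAJC genes gave 16 and 13, the 12 DNAJB genes 6 and 4, the 8 small heat shock genes 4 and 3, and the 4 DNAJA genes 2 and 2. HSPH1, HSPD1 and HSPE1 had a summit in each library, and HSP90AB1 was not called at 2 kb on either day. Among subfamilies of at least 4 genes, the widest gap between the days was that of the chaperonin genes, with a mean share of 85.2% ± 6.42 on day 15 and 51.9% ± 17.0 on day 12 (SD, n = 3 each). At 5 kb the chaperonin counts of the days overlapped, with 8, 8 and 7 on day 15 and 3, 5 and 7 on day 12. At 2 kb the 8, 8 and 7 chaperonin genes of the day 15 replicates did not overlap the 3, 5 and 6 of the day 12 replicates. All protein-coding genes also had a higher mean share on day 15, with 55.4%, 39.4% and 32.8% on day 15 and 13.2%, 27.9% and 42.4% on day 12, and whether the chaperonin gap exceeds theirs was not tested. The DNAJB genes varied least among libraries, with 7, 6 and 6 on day 15 and 5, 5 and 6 on day 12. These groups are small, and 1 gene moves the share of any of them by several points.

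**Figure D2:**
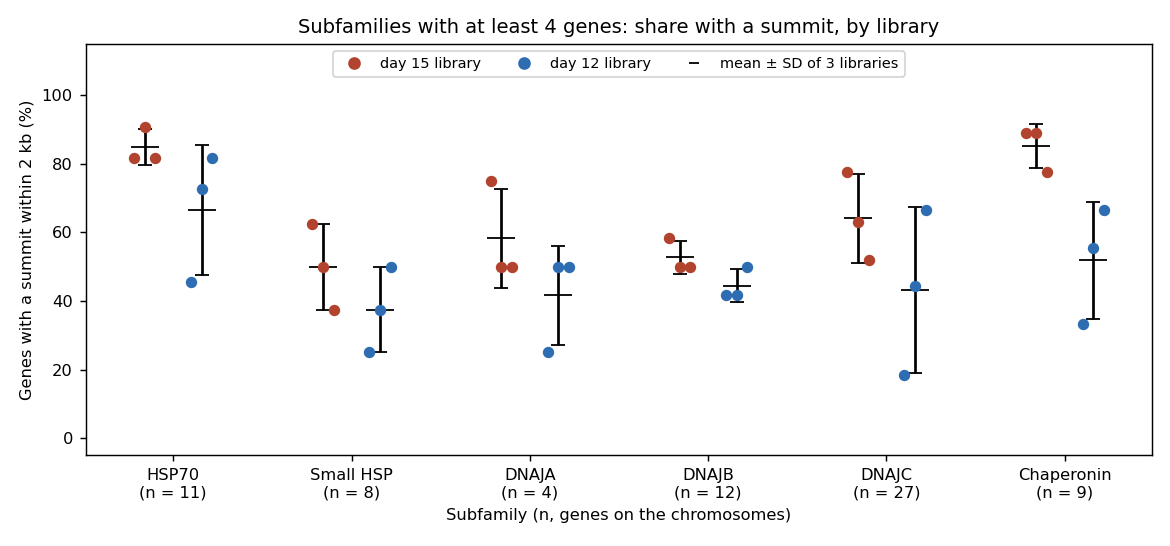
Share of the genes of each subfamily (%, vertical axis) with a C/EBP-β summit within 2 kb in each library, for subfamilies of at least 4 genes, with points for libraries and bars for the mean ± SD of 3 libraries. Day 15 and day 12 points overlap in the DNAJC and small heat shock genes and are apart in the chaperonin genes, where day 15 gave 8, 8 and 7 of 9 genes and day 12 gave 3, 5 and 6.

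Among the HSP70 genes, HSPA8, HSPA9, HSPA4, HSPA6 and HSPA1L had a summit within 2 kb in all 6 libraries. To place a summit within its own list, its score was turned into a percentile of all summits in that list, and percentiles of lists of different length do not measure a change. HSPA8 encodes the constitutive cytosolic HSP70, and its best summits lay at percentiles 95.1, 97.6 and 98.8 on day 15 and 81.0, 93.3 and 89.9 on day 12. They fell just outside one or the other end of the gene, 265 to 336 bp away on day 15 and 117 to 312 bp away on day 12. The gene spans chromosome 9 from 49982278 to 49986760, and summits flanked both of its ends in 5 of the 6 libraries each.

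HSPA9, the mitochondrial HSP70 also called mortalin, was marked at its higher-coordinate end. Summits lay at 12, 75 and 51 bp inside the gene on day 15 and at 63, 46 and 32 bp outside it on day 12, all within chromosome 2, 140532089 to 140532227. Their percentiles were 93.1, 95.0 and 94.1 on day 15 and 84.0, 90.9 and 95.7 on day 12. The positions of the days did not overlap within these 139 bp, while the percentiles did. Among the 15 regions near chaperone genes with summits in all 6 libraries, formed by joining summits within 200 bp, the positions of the days were apart in 3, at HSPA9, HSPB1 and DNAJB2, against 9.48% of 2701 such regions genome-wide, and mixed in the other 12.

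HSPA4, an HSP110-type exchange factor for HSP70, had summits 10, 129 and 11 bp from its lower-coordinate end on day 15 and 21, 4 and 35 bp from it on day 12. HSPA6, a strictly stress-induced HSP70 in humans, and HSPA1L, a testis-enriched HSP70, each had a nearby gene closer to most of the summits. The best HSPA6 summits lay 536, 491 and 502 bp away on day 15 and 525, 75 and 534 bp away on day 12, and 5 of these 6 were nearer to LOC110260307. For HSPA1L, 5 of 6 best summits lay 1542 to 1584 bp outside the gene and 105 to 147 bp from LSM2, which encodes an RNA-binding protein of the spliceosome. The annotated span of HSPA1L also encloses HSP70.2, a gene that the rule does not take by its symbol and that had summits within 2 kb in 3 day 15 libraries and 2 day 12 libraries.

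The other HSP70 genes were marked less regularly. HSPA4L, a relative of HSPA4, and HSPA14, a ribosome-associated HSP70, each had summits in 3 day 15 and 2 day 12 libraries. HSPA2, best known from the testis, had 3 and 1. Of the distant relatives, HSPA12A had 2 and 1 and HSPA12B 1 and 0, and HSPA13 had 1 on each day. HSPH1, the HSP110 protein itself, had a summit within 2 kb in all 6 libraries, at percentiles 60.7, 89.8 and 89.8 on day 15 and 3.25, 67.4 and 70.7 on day 12. In day 15 replicates 2 and 3 the best summit lay 1 and 7 bp beyond the higher-coordinate end. In day 12 replicates 2 and 3 it lay 1636 and 1621 bp inside the opposite end, where no day 15 library had a summit. HSPH1 was thus marked at more than 1 place, and which of them ranked highest differed between libraries.

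HSP90AB1, the constitutive cytosolic HSP90, had a summit within 2 kb in day 15 replicate 1 at 155 bp and in day 12 replicate 3 at 39 bp, and in no other library. At 5 kb all 3 day 15 libraries counted, against 1 on day 12. The added day 15 summits lay 3813 and 3845 bp beyond the gene and 207 and 175 bp from SLC35B2, a sulphate donor transporter gene. The day 15 count at 5 kb is thus shared with a neighbour.

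**Figure D3:**
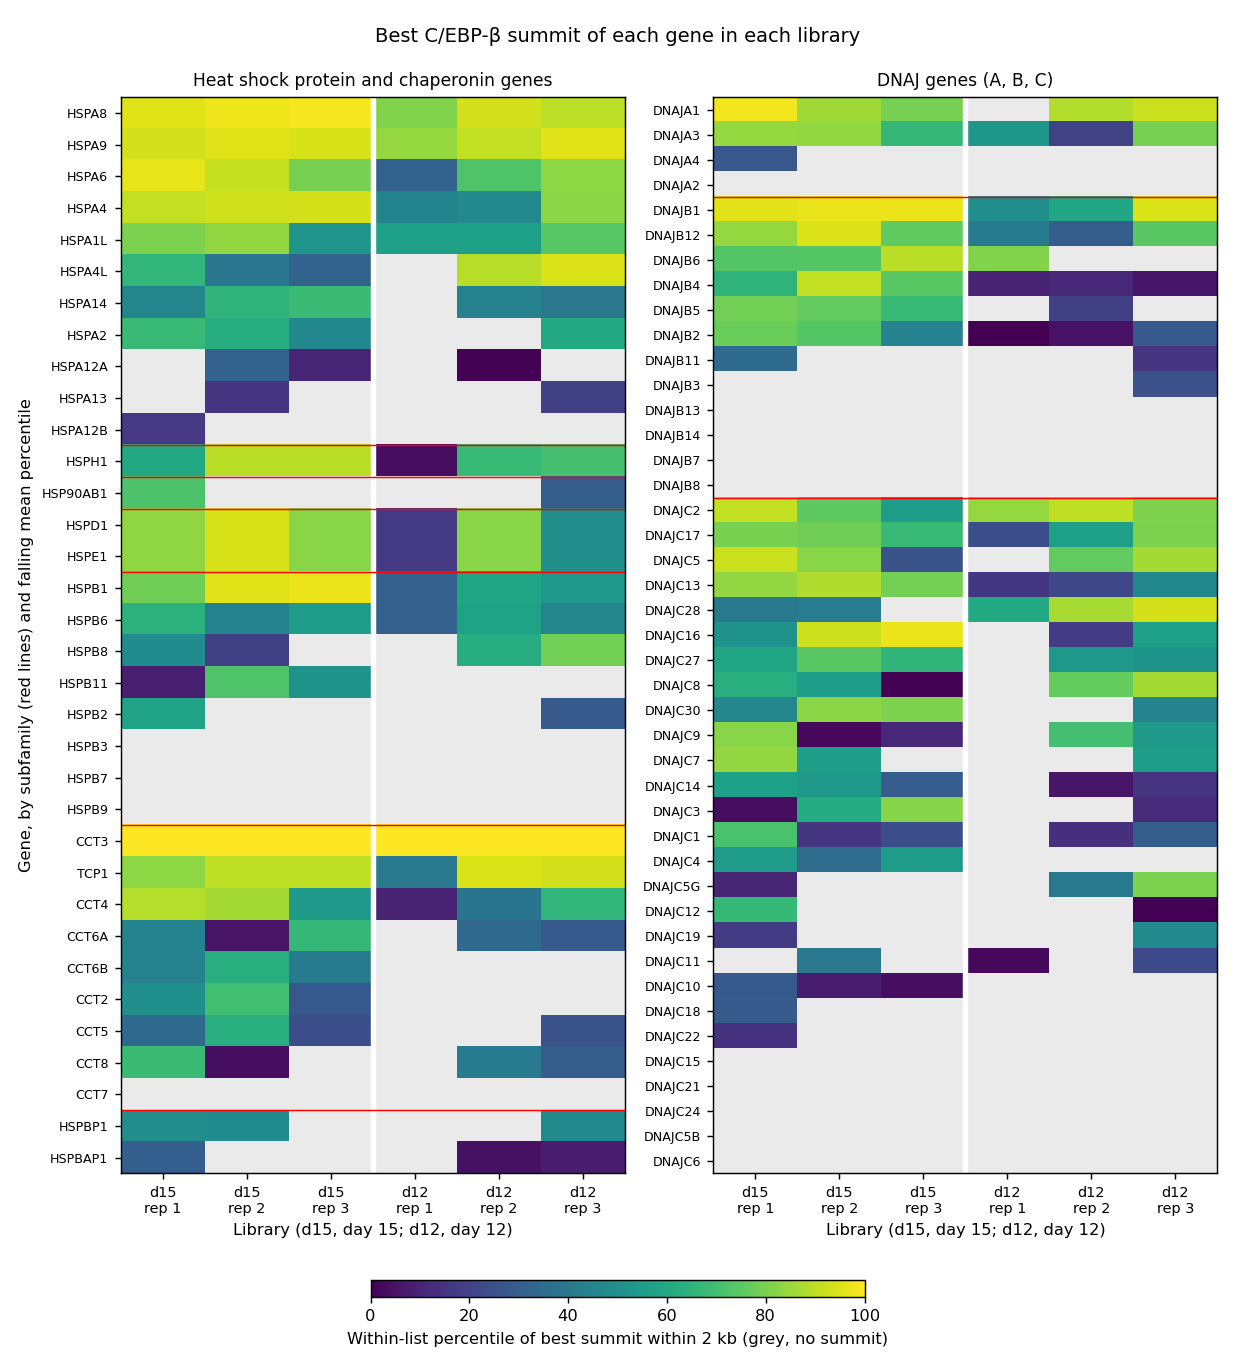
Percentile of the best C/EBP-β summit within 2 kb of each gene (colour, 0 to 100 within its own list; grey, no summit) for the 77 genes (rows, by subfamily) in the 3 day 15 and 3 day 12 libraries (columns). CCT3, HSPA8 and HSPA9 are at percentile 81.0 or above in each list, day 12 replicate 1 has the most grey cells with 24 genes marked, and 14 genes are grey throughout.

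HSPD1 and HSPE1, which encode the mitochondrial chaperonin HSP60 and its lid HSP10, lie next to each other on chromosome 15 and shared their summits. HSPD1 ends at 101373498 and HSPE1 begins at 101374019. The best summits of all 6 libraries fell in the gap between them, from 101373610 to 101373731, a stretch of 122 bp. They lay 168, 162 and 233 bp from HSPD1 on day 15 and 112, 127 and 172 bp from it on day 12, with percentiles of 83.3, 94.1 and 82.4 on day 15 and 16.8, 82.3 and 49.6 on day 12. The counts for these genes therefore rest on the same summits and are not independent of each other.

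Among the small heat shock genes, HSPB1 and HSPB6 had a summit within 2 kb in all 6 libraries. HSPB1 encodes HSP27, which binds unfolded proteins and actin filaments. Its best summits had percentiles of 78.3, 95.5 and 97.0 on day 15 and 30.8, 59.2 and 53.2 on day 12. Summits of all 6 libraries lay at its higher-coordinate end on chromosome 3, between 10039238 and 10039767, and those 530 bp are the widest stretch of any region found in all 6 libraries near a chaperone gene. Within it, the day 15 summits lay at lower positions than the day 12 summits, with no overlap.

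HSPB6, or HSP20, had its best summits 623 to 1083 bp away on day 15 and 698 to 1031 bp away on day 12, and each of the 6 was nearer to PROSER3. HSPB8, a partner of the cochaperone BAG3, had a summit in 2 libraries of each day. HSPB11 is a component of intraflagellar transport despite its name, and it had a summit in each day 15 library and in no day 12 library. The best of these lay 295, 545 and 288 bp from HSPB11, and 13, 263 and 6 bp from LRRC42. HSPB2 had a summit in 1 library of each day, and HSPB3, HSPB7 and HSPB9 had none within 2 kb. HSPB7, a heart small heat shock protein, had no summit within 5 kb, and its nearest summits lay 24516, 24365 and 55688 bp away on day 15 and 25186, 25158 and 16740 bp away on day 12.

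CCT3, the gamma subunit of TRiC, had the highest-ranked summits of all chaperone genes, near the top of each library's list. All 6 lay 123 to 154 bp outside the lower-coordinate end of the gene on chromosome 4, between 93733813 and 93733844, a stretch of 32 bp. Their scores, on the −log10 scale deposited by the authors, were 328, 141 and 99.1 on day 15 and 122, 122 and 207 on day 12. The lowest of their percentiles was 99.87, in day 15 replicate 3. The scores of the days overlapped, and since a score depends on depth, no change is read from them.

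TCP1, the alpha subunit, and CCT4, the delta subunit, also had a summit within 2 kb in all 6 libraries. For TCP1 the best summit lay 880, 630 and 663 bp outside the lower-coordinate end on day 15, with percentiles of 82.9, 90.6 and 90.3, and on that side MRPL18, a mitochondrial ribosomal protein gene, was nearer. On day 12 the best summit of replicate 1 lay on the same side at 772 bp, and those of replicates 2 and 3 lay 1029 and 1113 bp outside the opposite end at percentiles 94.2 and 93.3. Day 15 replicate 1 also had a summit at that site beyond the opposite end, which thus held the libraries of set B and none of set A. CCT4 was marked near its lower-coordinate end, at percentiles of 88.7, 86.5 and 54.0 on day 15 and 9.73, 38.8 and 66.0 on day 12.

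The remaining chaperonin subunits were marked in fewer libraries. CCT2, the beta subunit, had a summit in each day 15 library, at 268, 170 and 49 bp from the gene end, and in no day 12 library, and no other gene end lies within 5 kb of its ends. The nearest day 12 summits lay 60091 bp away in replicate 2 and 20938 bp away in replicate 3, and replicate 1 had none within 200 kb. CCT6B, a testis-enriched copy of the zeta subunit, had 3 and 0 within 2 kb, at 208, 160 and 28 bp on day 15, and a day 12 summit at 3630 bp in replicate 3. CCT5, the epsilon subunit, had 3 on day 15, at 36, 44 and 134 bp, and 1 on day 12, at 58 bp in replicate 3. CCT6A had 3 and 2, and CCT8 had 2 and 2.

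CCT7, the eta subunit, was the only chaperonin gene with no summit within 5 kb. Its nearest summits lay 5920, 6044 and 5992 bp away on day 15, and 6224 and 6279 bp away in day 12 replicates 2 and 3, just past the window. Day 12 replicate 1 had its nearest summit at 160693 bp. Subunits of the same complex thus ran from a site in the uppermost part of each list at CCT3 to none within 5 kb at CCT7.

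J proteins bring clients to HSP70 and set off its ATP hydrolysis. DNAJB1, the HSP40 partner of HSP70 in the heat shock response, had percentiles of 95.5, 96.5 and 96.9 on day 15 and 49.7, 59.8 and 94.2 on day 12. Its best summits lay 668, 19 and 87 bp from the lower-coordinate end on day 15 and 129, 620 and 660 bp from it on day 12, at a site near the end itself or at another farther outside. The near site held the best summits of day 15 replicates 2 and 3 and day 12 replicate 1, the libraries of set A. The farther site held those of the libraries of set B. Each site thus had summits of both days, and the sites were split by processing set. DNAJA1, a farnesylated cytosolic J protein, had a summit within 2 kb in 3 day 15 and 2 day 12 libraries, and DNAJA3, a mitochondrial J protein, in all 6, 122 to 201 bp outside its higher-coordinate end. DNAJA4 had 1 and 0, and DNAJA2 had none within 5 kb in any library.

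DNAJB12, a J protein of the endoplasmic reticulum membrane, had summits in all 6 libraries, 397, 557 and 522 bp inside its higher-coordinate end on day 15 and 503, 426 and 438 bp inside it on day 12. DNAJB2, known for sorting ubiquitylated clients in neurons, had them 52, 158 and 108 bp inside its lower-coordinate end on day 15 and 3, 112 and 111 bp outside it on day 12. The percentiles of DNAJB2 were 77.7, 73.7 and 44.5 on day 15 and 0.08, 4.67 and 27.8 on day 12, so its day 12 summits lay in the lower part of their lists. DNAJB4 also had 6, and 4 of the best ones were nearer to FUBP1.

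DNAJB5 and DNAJB6 had a summit in 3 day 15 libraries and 1 day 12 library each. DNAJB6, which keeps polyglutamine proteins from aggregating, had them 146, 76 and 117 bp outside its end on day 15 and 80 bp outside in day 12 replicate 1. In day 12 replicates 2 and 3, whose lists are longer, the nearest DNAJB6 summits were 8855 and 6719 bp away. Of the other 6 DNAJB genes, DNAJB11, of the endoplasmic reticulum, had 1 library of each day, DNAJB3 had day 12 replicate 3 alone, and DNAJB7, DNAJB8, DNAJB13 and DNAJB14 had none within 2 kb.

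Of the 27 DNAJC genes, 3 had a summit within 2 kb in all 6 libraries, a share near the 9.71% of all genes. They were DNAJC2, DNAJC13 and DNAJC17. DNAJC2 encodes a J protein bound to ribosomes, and its 6 best summits lay within 36 bp of each other on chromosome 9, between 103360951 and 103360986, 1613 to 1648 bp inside the gene. Their percentiles were 90.9, 75.0 and 55.2 on day 15 and 84.2, 90.3 and 80.8 on day 12. In 4 of the libraries, the 3 of day 15 and replicate 3 of day 12, DNAJC2 also had a summit within 123 bp of its end, in a region nearer to PSMC2, a proteasome gene. DNAJC13 is an endosomal J protein, and its summits lay 73 to 162 bp inside its lower-coordinate end on day 15 and 119 to 288 bp inside it on day 12. DNAJC17, linked to splicing, had best summits 64 to 110 bp outside its end on day 15 and 59 to 435 bp from it on day 12.

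Of the 27 DNAJC genes, 21, 17 and 14 had a summit within 2 kb in the day 15 replicates and 5, 12 and 18 in the day 12 replicates. The 5 in day 12 replicate 1 are near the background of that list, where 13.2% of all genes had a summit. DNAJC1, DNAJC5, DNAJC8, DNAJC9, DNAJC14, DNAJC16 and DNAJC27 had 3 day 15 and 2 day 12 libraries, in each case without day 12 replicate 1. DNAJC3 and DNAJC30 had 3 and 1. DNAJC10, a disulphide reductase of the endoplasmic reticulum, had 3 and 0, with low percentiles of 27.6, 7.50 and 3.75 on day 15. DNAJC4 had 3 and 0, at 639, 330 and 367 bp inside the gene on day 15. DNAJC18 counted 3 and 1 at 5 kb, where the summits of day 15 replicates 2 and 3 and of day 12 replicate 3 lay 162 to 216 bp from SPATA24.

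Positions differed between libraries at a few genes with more than 1 site. DNAJC5 encodes cysteine string protein, a J protein of secretory vesicles. All 3 day 15 libraries had a summit within a region of 124 bp at its lower-coordinate end, on chromosome 17 from 62754497 to 62754620, and no day 12 library did. A second site, from 62753258 to 62753284, held the summits of day 12 replicates 2 and 3, 1346 and 1353 bp outside the gene, and the best summit of day 15 replicate 1, 1372 bp outside it. HSPA4L had the same form, with a site 1195 to 1224 bp inside its higher-coordinate end in day 15 replicate 1 and day 12 replicates 2 and 3, and summits within 127 bp of that end on day 15 alone. At both genes the more distant site was found in all 3 libraries of set B and in none of set A. The same held for the farther site at DNAJB1 and for the site beyond the higher-coordinate end of TCP1.

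Regions were formed by joining summits of any library that lay within 200 bp of each other. Within 5 kb of the chaperone genes there were 229 such regions. Of these, 96 (41.9%) held summits of 1 library, and 15 (6.55%) held summits of all 6 libraries, the one between HSPD1 and HSPE1 among them.

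**Figure D4:**
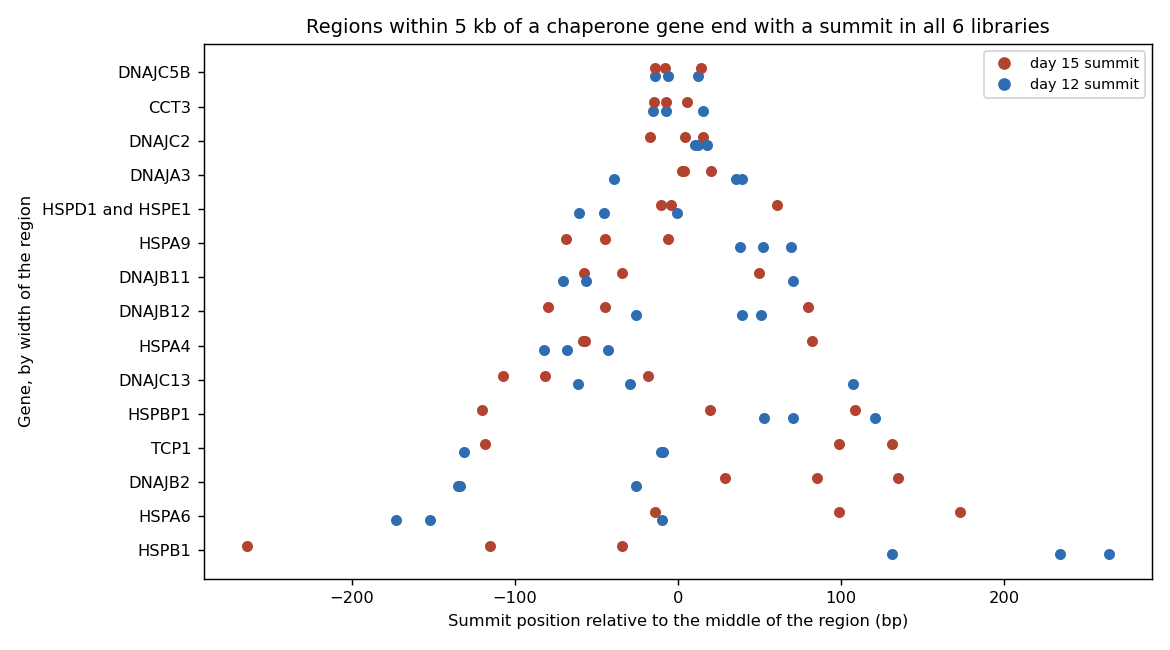
Position of each library's summit relative to the middle of the region (bp, horizontal axis) in the regions within 5 kb of a chaperone gene that held a summit in all 6 libraries, ordered from the narrowest at the top to the widest. The summits spanned 29 bp near DNAJC5B, 32 bp near CCT3 and 36 bp near DNAJC2, and 530 bp near HSPB1, where day 15 and day 12 points lie on opposite sides.

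The narrowest regions found in all 6 libraries were those near DNAJC5B (29 bp), CCT3 (32 bp), DNAJC2 (36 bp) and DNAJA3 (80 bp). DNAJC5B, a testis-enriched relative of DNAJC5, had no summit within 2 kb, yet in all 6 libraries it had a summit 3149 to 3177 bp inside its higher-coordinate end, on chromosome 4 from 68637957 to 68637985. Percentiles there were 98.7, 77.1 and 85.2 on day 15 and 88.8, 88.0 and 97.4 on day 12. The regions near HSPA9, DNAJB11, DNAJB12 and HSPA4 spanned 139 to 165 bp, and those near DNAJC13, HSPBP1, TCP1, DNAJB2 and HSPA6 spanned 216 to 347 bp. The region near HSPA6 is not the one described above but lies 4402 bp from the opposite end of the gene, and that near DNAJB11 lies nearer to TBCCD1. HSPBP1, an exchange factor that met the rule by its symbol, had its region 2234 bp outside the gene.

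No chaperone gene could be called different between the days. The two-sided exact permutation test on the percentile of the best summit within 5 kb, over the 20 divisions of the 6 libraries, cannot go below p = 0.1 for 3 libraries against 3. The smallest Benjamini-Hochberg adjusted p over all 19550 genes was 0.809, 0 genes reached an unadjusted p under 0.05, and 0% were called. The smallest p was reached with higher percentiles on day 15 by 23 chaperone genes (29.9%), against 12.2% of all genes, and with higher percentiles on day 12 by 0, against 0.143%. Of the 23, 11 had a summit within 5 kb in day 12 replicate 1, the shortest list, and the other 12 entered as 0 there. The part of list length in these counts was not tested.

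Within 2 kb, CCT2, CCT6B, DNAJC4, DNAJC10 and HSPB11 had a summit in all 3 day 15 and no day 12 libraries, 5 of 77 (6.49%) against 3.44% of all genes. The reverse held for 0, against 0.0102%. Within 5 kb, a summit in all 3 day 15 and in no day 12 library was found for CCT2, DNAJC4, DNAJC10 and HSPB11, 4 of 77 (5.19%) against 2.83% of all genes. The reverse was found for 0, against 0.0307% of all genes. In the day 12 replicates the nearest DNAJC4 summits lay 5618, 5611 and 5553 bp away, just past that window. The nearest day 12 summit lay 7381 bp away for DNAJC10 and 18006 bp away for HSPB11. The count of 4 at 5 kb became 9 when day 12 replicate 3 was left out, a setting for which the share of all genes was not taken. At least 2 more libraries on day 15 than on day 12 were found for 11 chaperone genes (14.3%), against 11.8% of all genes: those 4 and CCT5, CCT6B, DNAJB5, DNAJB6, DNAJC18, HSP90AB1 and HSPA2. At least 2 more on day 12 were found for 0, against 1.58%. More libraries on day 15 by any number were found for 32 (41.6%, against 35.3%) and more on day 12 for 5 (6.49%, against 11.2%), DNAJB3, DNAJC28, DNAJC5G, HSPB2 and HSPBAP1.

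With lists of equal length the libraries were ordered by processing set and not by day. When each list was limited to its 6557 highest-scoring summits, 11.7%, 44.2% and 41.6% of chaperone genes had a summit within 2 kb in the day 15 replicates and 31.2%, 13.0% and 10.4% in the day 12 replicates. Among all protein-coding genes the libraries of set A also lay above those of set B, with 6.84%, 20.7% and 20.7% on day 15 and 13.2%, 5.85% and 5.85% on day 12. The mean over the 3 libraries of set A was 39.0% ± 6.87 and over those of set B 11.7% ± 1.30 (SD). Within set A the chaperone share was 42.9% on day 15 and 31.2% on day 12, and within set B it was 11.7% on day 15 and 11.7% on day 12. What makes the sets differ was not tested. Equal lists left 30 chaperone genes (39.0%) bound on day 15 within 2 kb, against 16.5% of all genes, and 11 (14.3%) on day 12, against 6.06%. Within 5 kb they left 36 (46.8%) on day 15, against 20.3%, and 13 (16.9%) on day 12, against 9.68%. Set A, which lay higher, holds day 15 replicates 2 and 3 but only replicate 1 of day 12. A rule of 2 of 3 libraries therefore does not treat the days alike. The part of the sets in these day counts was not tested. With all summits scored at least 10, the counts within 2 kb were 27 (35.1%) on day 15, against 16.5% of all genes, and 11 (14.3%) on day 12, against 8.91%. Within 5 kb they were 34 (44.2%) on day 15, against 20.3%, and 15 (19.5%) on day 12, against 14.0%.

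**Figure D5:**
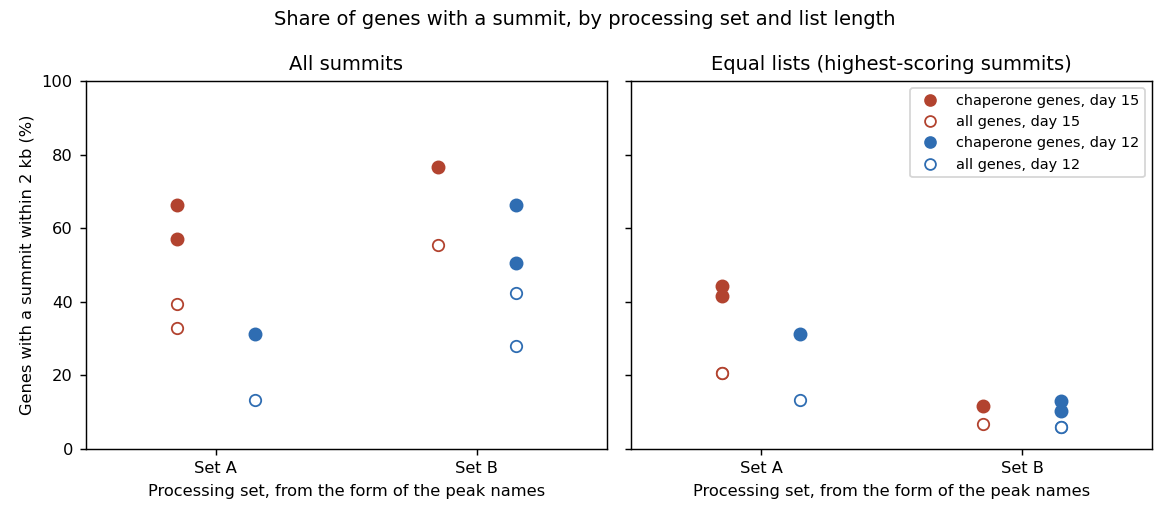
Share of genes (%, vertical axis) with a C/EBP-β summit within 2 kb by processing set, with all summits (left) and with the 6557 highest-scoring summits of each list (right), filled for chaperone genes and open for all protein-coding genes. With equal lists the 3 libraries of set A lie at 31.2% to 44.2% and those of set B at 10.4% to 13.0%, and the day 15 library of set B lies between its day 12 libraries.

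CCT3, HSPA8 and HSPA9 kept a summit within 2 kb in all 6 libraries with equal lists, 3 of 77 (3.90%) against 2.33% of all genes. The same 3 genes remained with a score of at least 10, against 1.98% of all genes. With equal lists 0 chaperone genes had a summit within 2 kb in all 3 day 15 and no day 12 libraries, against 0.210% of all genes. DNAJC28 alone (1.30%) had one in all 3 day 12 and no day 15 libraries, against 0.143% of all genes. Its summits on day 12 lay 753, 738 and 741 bp outside the gene, at percentiles 61.1, 86.9 and 93.6. At the same site day 15 replicate 1 had a lower-ranked summit at 758 bp, and day 15 replicates 2 and 3 had none there.

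Partners of the chaperones were bound by the same rule at 2 kb as follows. Of 15 placed HSP90 cochaperones, 11 were bound on day 15 and 10 on day 12, and SUGT1 had a summit in each of the 6 libraries. Of 14 HSP70 exchange factors and cochaperones, HSPBP1 among them, 12 were bound on day 15 and 5 on day 12. BAG3, BAG6 and ST13 had all 6, and BAG4, STUB1, GRPEL2 and HYOU1 had 3 on day 15 and 0 on day 12. Prefoldin, which hands clients to TRiC, and the tubulin and chaperonin cofactors gave 13 of 16 on day 15 and 6 of 16 on day 12, with all 6 libraries at PDCL and TBCC. Of 6 mitochondrial and AAA chaperones, 4 were bound on day 15 and 2 on day 12, with all 6 libraries at CLPX, a mitochondrial unfoldase. PDCL3 and HSCB, of the later lists, also had 3 on day 15 and 0 on day 12. The background is again 40.4% of all genes on day 15 and 27.7% on day 12. A summit in all 6 libraries was found for 9.71% of all genes, and 3 on day 15 with 0 on day 12 for 3.44%.

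The heat shock factors drive the stress response of many chaperone genes, and their list also held HSBP1 and HSBP1L1. None of its 5 placed genes had a summit within 2 kb in all 6 libraries, against 9.71% of all genes. No difference is read from so few genes. HSF1, the main factor of the heat shock response, had a summit within 2 kb in 3 day 15 libraries and 1 day 12 library. HSF2 had 2 and 0, and HSBP1, which binds the active HSF1 trimer, had 3 and 0. HSF5 and HSBP1L1 each had 1 on day 15 and 2 on day 12. The chaperones left out by the rule had a summit in all 6 libraries, with percentiles of 98.1 to 99.4 on day 15 and 83.8 to 98.6 on day 12 for HSPA5, 89.2 to 95.7 and 73.6 to 80.5 for HSP90B1, and 89.6 to 95.9 and 62.2 to 85.1 for DNAJB9.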

How the data were processed

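Chromatin of pig endometrium was fixed with formaldehyde, sonicated and immunoprecipitated with an antibody to C/EBP-β, per the labels' protocols. The submitters' processing notes name the build susScr11 and the tools MACS2 2.1.2, SAMtools 1.9 and Bowtie2 2.3.5.1. The sources used here do not give the calling threshold or how the input entered it. The authors deposited a score with every summit on a −log10 scale, without saying if a p-value or q-value lies behind it. Scores depend on depth and served to order or filter the summits of a list. The files hold no counts of reads, so depth and its precision are unknown.

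Genes were placed with RefSeq positions for Sscrofa11.1 (susScr11), given without strand or sequence. A gene therefore had a summit when one lay within 2 or 5 kb of either end, and no promoter sequence or motif is shown. Coordinates count from 1. A gene was bound on a day with a summit in at least 2 of 3 libraries. Percentiles were taken within each list, with 0 for a gene without a summit, and compared gene by gene with a two-sided exact permutation test and Benjamini-Hochberg adjustment over 19550 genes (threshold 0.05), which was tested on simulated data. Shares over the chaperone genes carry no test. The p-values measure only the spread between these libraries, which may be technical. Computation used Python 3.11.15 with numpy 2.4.6, pandas 2.3.3 and scipy 1.17.1.

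The chaperone genes, the partner lists and the rules were chosen with earlier results of these data known. Genes were described singly if they were TRiC, HSP90, HSPD1, HSPE1 or HSPH1 genes, had a summit within 2 kb in all 6 libraries, differed by at least 2 libraries between days at 5 kb, were among the 8 with the highest mean percentile, or were HSPA or HSPB genes with no summit within 5 kb. The others were named by their counts, and DNAJC5B, DNAJC5, HSPA4L, DNAJC28 and the genes with values beyond this rule were chosen after their values were seen. Alternatives were score minima of 2, 5 and 10, equal lists, other windows, all 3 libraries of a day, each library left out, averaging of processing sets, genes with no neighbour, and a replicate block.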

Additional observations from a re-analysis of the deposited data

How the results depend on the processing

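The difference in the share of chaperone genes with a summit (day 15 minus day 12) kept its direction under each alternative run. Leaving out 1 library gave 8.23 to 25.8 points at 2 kb and 6.93 to 26.4 points at 5 kb, and 0.879 to 4.10 points for the share relative to all genes. That relative difference was 8.06 points with a score of at least 5, 8.98 with a score of at least 10, 6.51 with equal lists and 5.80 with a window of 1 kb. The 6.51 points mix the processing sets, which hold unequal numbers of libraries of each day. Within set A the equal lists differed between days by 11.7 points for chaperone genes and 7.47 for all genes. Within set B these differences were 0 and 0.997 points. Counts bound on day 15 and day 12 were 27 and 11 at 2 kb and 34 and 15 at 5 kb with a score of at least 10. With equal lists they were 30 and 11 at 2 kb and 36 and 13 at 5 kb, where set A lay higher and holds more day 15 than day 12 libraries. Among the 30 genes with no other gene end within 5 kb, they were 20 and 15 at 2 kb and 21 and 17 at 5 kb. With all 3 libraries required, 22 were bound on day 12 at 2 kb and 25 at 5 kb. Leaving out 1 library gave 43 to 49 and 22 to 38 bound at 2 kb, and 49 to 58 and 25 to 47 at 5 kb. Genes in all day 15 and no day 12 libraries numbered 0 with equal lists, 2 among genes without neighbours, 2 with the gene body as window and 4 to 9 with 1 library left out. The reverse count was 1 with equal lists, and 0 to 0 with 1 library left out. Shares of all genes are not given for a library left out, all 3 required, genes without neighbours or the gene body as window. Of 36 genes described singly, the difference in libraries between days at 5 kb changed for 1 with a score of at least 2, 16 with at least 5, 28 with at least 10, 24 with equal lists and 4 with the gene body as window. The cause of these moves was not tested, other than fewer genes or libraries. Same-numbered libraries of the days had correlations of -0.367, -0.0913 and -0.202 over 13776 genes. Each such pair joins a library of set A with one of set B, so these values cannot show whether replicate numbers pair the libraries. Differently numbered libraries had -0.124 and -0.156 across the sets, and 0.180, 0.189, 0.248 and 0.300 within a set. The replicate block gave 17.3, 18.2 and 2.66 points and 0 genes called. Gene starts and motifs were not run, because the table used gives no strand or sequence. Unknown depth limits what an absent summit means.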
